A study of Mus musculus with 18 samples.

Results

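The levels of 10 tubulin-related genes were followed in crushed and uncrushed mouse retinas: the β-tubulins Tubb2a, Tubb2b, Tubb3, Tubb4a, Tubb5 and Tubb6, the α-tubulins Tuba1a and Tuba1b, and the tubulin-binding proteins Tppp and Tppp3. They were chosen by name, as every probe whose RefSeq accession maps to 1 of these 10 symbols, which gave 12 of the 39429 probes on the array and 10 of its 20144 symbols. Tubb2b and Tuba1b had 2 probes each and the other genes 1. The brightest probe of a gene is called its leading probe. Cy5 and Cy3 were well above background for all 12 probes on all 17 arrays compared, and all 12 entered the test.

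Microtubules are polymers of α- and β-tubulin pairs, and they form the tracks and the scaffold of the axon. Vertebrates have several genes for each, called isotypes, which differ in where they are used: TUBB3 is largely confined to neurons and is a common stain for retinal ganglion cells, whose axons make up the optic nerve, while TUBB5 and TUBA1B are broadly used. TPPP proteins bind tubulin and bundle microtubules, and TPPP is best known from oligodendrocytes. Isotype use is known to shift in neurons whose axons are growing or injured.

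Whole-retina RNA was taken 3 days after crush of the optic nerve, with the uninjured eye as the control, and each array held Cy5-labelled retinal RNA against a Cy3-labelled universal mouse reference pool. All mice carried floxed alleles of DLK (Map3k12), a kinase that relays axon injury to the nucleus through JNK, and all received tamoxifen at 10 to 12 weeks of age. The groups were 5 Cre-positive crushed, 5 Cre-positive uncrushed, 3 Cre-negative crushed and 4 Cre-negative uncrushed retinas. Cre-positive mice carried Cre-ERT under the CAG promoter, which is active in many tissues, so that DLK was not removed from neurons alone, and the labels state that a small amount of DLK protein was left, varying between animals. Cre-negative mice were littermates with intact DLK. The title of 1 more Cre-negative array says uncrushed while its description says crushed, so it entered no comparison.

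Values are log2 of Cy5 over Cy3, so 1 unit is a doubling of retinal over reference signal, and they compare samples for 1 probe, not probes with each other. The share of probes with Cy5 clearly over background was 68.0% to 76.2% per array, no spot was saturated (0 on the highest array), and Pearson's r across probes between arrays of a group was 0.981 to 0.995. The Map3k12 probe averaged 2.01 ± 0.18 (SD, n = 10) with Cre and 2.46 ± 0.15 (SD, n = 7) without it. All 13 photoreceptor markers were above background on every array. Cre-positive crushed replicate 5 was highest in lens markers and Cre-positive uncrushed replicate 4 in cornea, iris and ciliary body markers. The labels do not say whether the retinas of a group came from separate animals, so p-values measure the spread between these samples, and the number of arrays limits the precision. Changes were tested in limma across 30484 probes, with Benjamini-Hochberg adjustment over all of them and a threshold of 0.05.

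Tppp3 was the only member called after crush in both genotypes, and its fall was smaller in Cre-positive retinas. In Cre-positive retinas it read 3.19, 3.26, 3.19, 3.19 and 3.09 in the crushed samples, against 3.46, 3.70, 3.85, 3.81 and 3.66 in the uncrushed ones. The groups did not overlap. In Cre-negative retinas it read 2.31, 2.17 and 2.15 in the crushed samples, against 3.59, 3.36, 3.44 and 3.50 in the uncrushed ones. Here the gap was wider, with every crushed sample more than 1 unit below every uncrushed one, and the 5 Cre-positive crushed samples all lay above the 3 Cre-negative crushed ones.

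In Cre-positive retinas Tppp3 fell by 0.51 (SE 0.07, 95% CI -0.66 to -0.37, limma adjusted p = 0.00085), to 70.1% of the uncrushed level. In Cre-negative retinas it fell by 1.26 (SE 0.08, 95% CI -1.43 to -1.09, limma adjusted p = 1.8e-08), to 41.7% of the uncrushed level. The difference between these responses was itself called, at 0.75 (SE 0.11, 95% CI 0.52 to 0.97, limma adjusted p = 0.0013). Between crushed retinas, Tppp3 was 0.97 higher with Cre (SE 0.08, limma adjusted p = 6e-07), at 196% of the Cre-negative level. Between uncrushed retinas it was 0.22 higher with Cre (SE 0.07, 95% CI 0.07 to 0.37), and these groups overlapped. That difference was not called (limma adjusted p = 0.89), though its unadjusted limma p was 0.0067. These comparisons share groups, so they are not independent of each other.

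The fall of Tppp3 held within slides. On the 4 slides with both kinds of Cre-positive retina, crushed minus uncrushed was -0.64, -0.37, -0.50 and -0.41. On the 3 slides with 1 Cre-negative retina of each kind it was -1.21, -1.19 and -1.27. All 7 within-slide differences were falls, and the Cre-positive ones lay outside the range of the Cre-negative ones. The signal behind the ratio moved the same way: mean processed Cy5 intensity was 5326 in Cre-positive crushed and 7580 in Cre-positive uncrushed retinas, and 2412 in Cre-negative crushed and 6984 in Cre-negative uncrushed retinas. The Cy3 reference moved less, at 423 in Cre-positive crushed and 414 in Cre-positive uncrushed retinas, and 356 in Cre-negative crushed and 442 in Cre-negative uncrushed retinas. The calls in Cre-positive retinas and on the difference were lost if the array with disagreeing labels was placed among the Cre-negative uncrushed retinas. The Cre-positive change, which does not use that array's values, was then still -0.51 (limma adjusted p = 0.27), with the spread shared by the groups and the adjustment being what differed, and the difference was 0.54 (limma adjusted p = 0.62). With that array among the Cre-negative crushed retinas both calls were kept, at -0.51 and 0.70 (limma adjusted p = 0.0010 and 0.0018).

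**Figure D1:**
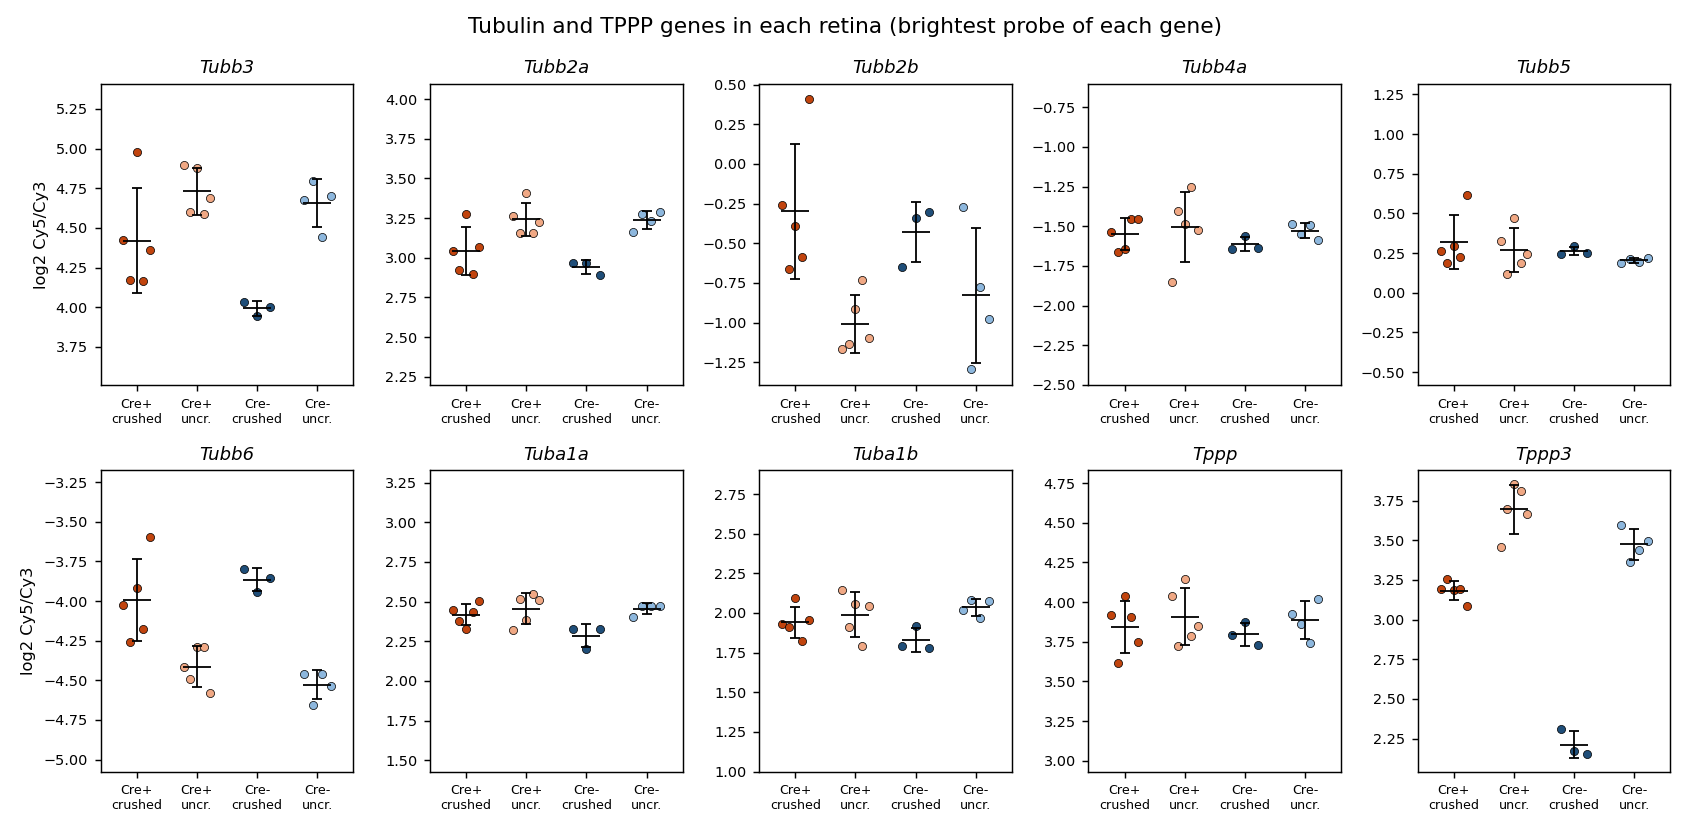
Log2 Cy5/Cy3 of the leading probe of each of the 10 genes in each retina (points), with the group mean and SD (bars), for 5 Cre-positive crushed, 5 Cre-positive uncrushed, 3 Cre-negative crushed and 4 Cre-negative uncrushed retinas ("uncr." is uncrushed). Each panel spans the same number of log2 units around its own centre. Tppp3 stands furthest apart, with Cre-negative crushed retinas at 2.15 to 2.31 and every other retina at 3.09 or above.

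Tubb3, the neuronal β-tubulin, was lower after crush in Cre-negative retinas and was not called in Cre-positive ones. In Cre-positive retinas it read 4.43, 4.17, 4.98, 4.16 and 4.36 in the crushed samples, against 4.89, 4.60, 4.88, 4.59 and 4.69 in the uncrushed ones. Crushed replicate 3 was above every uncrushed retina and the other crushed samples were below them all. The mean change was -0.31 (SE 0.12, 95% CI -0.57 to -0.06, limma adjusted p = 0.42). Without crushed replicate 3 it was -0.45 and passed (limma adjusted p = 0.018). The within-slide differences were -0.16, -0.53, -0.18 and -0.52.

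In Cre-negative retinas Tubb3 read 4.03, 3.94 and 4.0 in the crushed samples, against 4.68, 4.80, 4.45 and 4.70 in the uncrushed ones. The groups did not overlap, and the crushed samples lay close together. It fell by 0.66 (SE 0.15, 95% CI -0.97 to -0.36, limma adjusted p = 0.020), to 63.1% of the uncrushed level. The call is near the threshold: it was lost when any of 6 of the 7 Cre-negative arrays was left out (limma adjusted p = 0.0509 to 0.0836), with the scanner software's processed signals (-0.61, limma adjusted p = 0.13) and with the array of disagreeing labels among the uncrushed retinas (-0.52, limma adjusted p = 0.26). With that array among the crushed retinas it was kept (-0.68, limma adjusted p = 0.0056), and the lowest adjusted p over the alternatives was 0.00052, without Cre-positive crushed replicate 3. The within-slide differences were -0.80, -0.67 and -0.50. The difference between the crush responses, 0.35, was not called (95% CI -0.05 to 0.75, limma adjusted p = 0.65). Between crushed retinas the Cre-positive samples all lay above the Cre-negative ones, but the difference of 0.43 was not called (SE 0.14, limma adjusted p = 0.17).

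Tubb2a, a β-tubulin abundant in neurons, had smaller changes of the same sign. It read 3.04, 2.92, 3.28, 2.90 and 3.07 in Cre-positive crushed retinas, against 3.27, 3.15, 3.41, 3.16 and 3.23 in Cre-positive uncrushed ones. Crushed replicate 3 was again the highest of its group and lay within the uncrushed range, and the change was -0.20 (SE 0.07, limma adjusted p = 0.29). In Cre-negative retinas it read 2.97, 2.97 and 2.89 in the crushed samples, against 3.16, 3.27, 3.23 and 3.29 in the uncrushed ones. These groups did not overlap, and the change of -0.30 missed the threshold (SE 0.08, limma adjusted p = 0.075), though it passed in 4 of 34 alternatives, among them the one with the array of disagreeing labels placed among the crushed retinas (-0.34, limma adjusted p = 0.019). The within-slide differences were -0.31 to -0.11 in Cre-positive and -0.38 to -0.26 in Cre-negative retinas, so all 7 were below 0, as for Tppp3 and Tubb3.

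The sequences before the start sites of Tubb3 and Tubb2a are shown. Of the 7 member genes with a promoter window, only these hold any of the 3 motifs searched. For both neuronal β-tubulins, and also for Tuba1a and Tuba1b, every Cre-negative crushed retina lay below every Cre-negative uncrushed one. The sequences are the 250 bases upstream of each gene's start in RefSeq, build GRCm38.p6, at chr8:123411303-123411552 on the plus strand for Tubb3 and chr13:34078009-34078258 on the minus strand for Tubb2a. Capitals mark the motif matches.
Tubb3: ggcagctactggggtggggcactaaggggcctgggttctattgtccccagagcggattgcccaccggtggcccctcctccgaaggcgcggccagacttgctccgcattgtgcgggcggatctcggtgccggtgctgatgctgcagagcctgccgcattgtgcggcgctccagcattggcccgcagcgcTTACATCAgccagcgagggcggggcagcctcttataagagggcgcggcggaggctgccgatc
Tubb2a: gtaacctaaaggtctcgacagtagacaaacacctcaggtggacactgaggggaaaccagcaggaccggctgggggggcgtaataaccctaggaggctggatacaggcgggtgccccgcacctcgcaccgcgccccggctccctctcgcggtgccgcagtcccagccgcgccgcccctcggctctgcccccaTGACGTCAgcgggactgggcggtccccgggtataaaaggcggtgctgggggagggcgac
The search covered 3 motifs on both strands, none overlapping another in these windows: TGANTCA, the site of AP-1, the factor that JNK activates, TGACGTCA, the cyclic AMP response element bound by CREB and ATF proteins, and TGATGNAA, the element bound by C/EBP and ATF pairs such as CHOP with ATF4. The Tubb3 window holds TGATGNAA on the minus strand, 62 to 55 bases before the start, and the Tubb2a window holds TGACGTCA, 59 to 52 bases before the start. Of all 32851 RefSeq promoter windows of this length 3.45% hold TGATGNAA, 1.55% hold TGACGTCA and 6.75% hold TGANTCA. The table has 7 of the 10 genes, and of the 7 windows 1 holds TGATGNAA, 1 TGACGTCA and 0 TGANTCA. The windows of Tuba1a and Tuba1b hold none of the 3 motifs. Tppp3, Tubb2b and Tubb6 are not in the table. A match describes these letters only, since no binding was measured.

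Tubb6, a minor β-tubulin isotype that is low in neurons, was higher after crush in Cre-negative retinas and just missed the threshold in Cre-positive ones. In Cre-positive retinas it read -4.02, -4.26, -3.92, -4.18 and -3.60 in the crushed samples, against -4.42, -4.49, -4.29, -4.29 and -4.58 in the uncrushed ones. The groups did not overlap, with the lowest crushed sample just above the highest uncrushed ones, and crushed replicate 5 stood above the rest. The change was 0.42 (SE 0.10, 95% CI 0.21 to 0.62, limma adjusted p = 0.057). It passed in 4 of 34 alternatives: without crushed replicate 2 or replicate 4 (limma adjusted p = 0.024 and 0.037), with the authors' value table (limma adjusted p = 0.049) and with slide as a random block (limma adjusted p = 0.046). In the other 30 it did not, with adjusted p up to 0.36, and without crushed replicate 5, the array highest in lens markers, the change was smallest, at 0.32 (limma adjusted p = 0.105). The within-slide differences were 0.24, 0.82, 0.47 and 0.32.

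In Cre-negative retinas Tubb6 read -3.80, -3.94 and -3.86 in the crushed samples, against -4.46, -4.66, -4.46 and -4.54 in the uncrushed ones. The groups did not overlap. It rose by 0.66 (SE 0.12, 95% CI 0.41 to 0.91, limma adjusted p = 0.0034), to 158% of the uncrushed level, and the within-slide differences were 0.80, 0.74 and 0.51. That call was lost when the array with disagreeing labels was placed among the uncrushed retinas (0.51, limma adjusted p = 0.24) and kept when it was placed among the crushed ones (0.69, limma adjusted p = 0.00061). The difference between the crush responses was -0.24 and was not called (95% CI -0.56 to 0.08, limma adjusted p = 0.71), so these data do not show that Tubb6 responded differently with Cre.

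Tubb2b, a β-tubulin of developing neurons that is also used outside them, had positive changes with crush on both probes, with a wide spread between samples. Its leading probe read -0.26, -0.67, -0.39, -0.58 and 0.41 in Cre-positive crushed retinas, against -1.17, -1.13, -0.92, -0.73 and -1.10 in Cre-positive uncrushed ones. These groups did not overlap, and crushed replicate 5 stood well above the others. The change was 0.71 and missed the threshold (SE 0.19, 95% CI 0.32 to 1.10, limma adjusted p = 0.11). On the second probe it was 0.60 and passed (SE 0.14, limma adjusted p = 0.048).

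In Cre-negative retinas the leading Tubb2b probe read -0.65, -0.34 and -0.30 in the crushed samples, against -0.27, -1.29, -0.77 and -0.98 in the uncrushed ones. Uncrushed replicate 1 lay above all 3 crushed samples. The change was 0.40 (SE 0.23, 95% CI -0.08 to 0.87, limma adjusted p = 0.49), and 0.35 on the second probe (SE 0.16, limma adjusted p = 0.37). Within slides the leading probe differed by 0.33 to 1.57 in Cre-positive and by 0.33 to 0.99 in Cre-negative retinas, above 0 on all 7. Uncrushed replicate 1 is in none of these, because its slide held no Cre-negative crushed retina. Among the arrays compared, Cre-positive crushed replicate 5 was highest both in this gene and in lens markers. The mean log2 level of 11 lens markers, relative to its mean over arrays, was 1.07 on that array. On the other 4 Cre-positive crushed arrays it was -0.16 to -0.01, and 5 to 10 of the 11 were above background over that group. Without replicate 5 the leading probe changed by 0.53 in Cre-positive retinas (limma adjusted p = 0.26). The array with disagreeing labels, which entered no comparison, had a lens level of 0.80 and read 0.27 on the leading probe. Cre-negative uncrushed replicates 1 and 2 had lens levels of -0.06 and 0.31 and read -0.27 and -1.29. The part of lens tissue in the Tubb2b values was not tested.

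**Figure D2:**
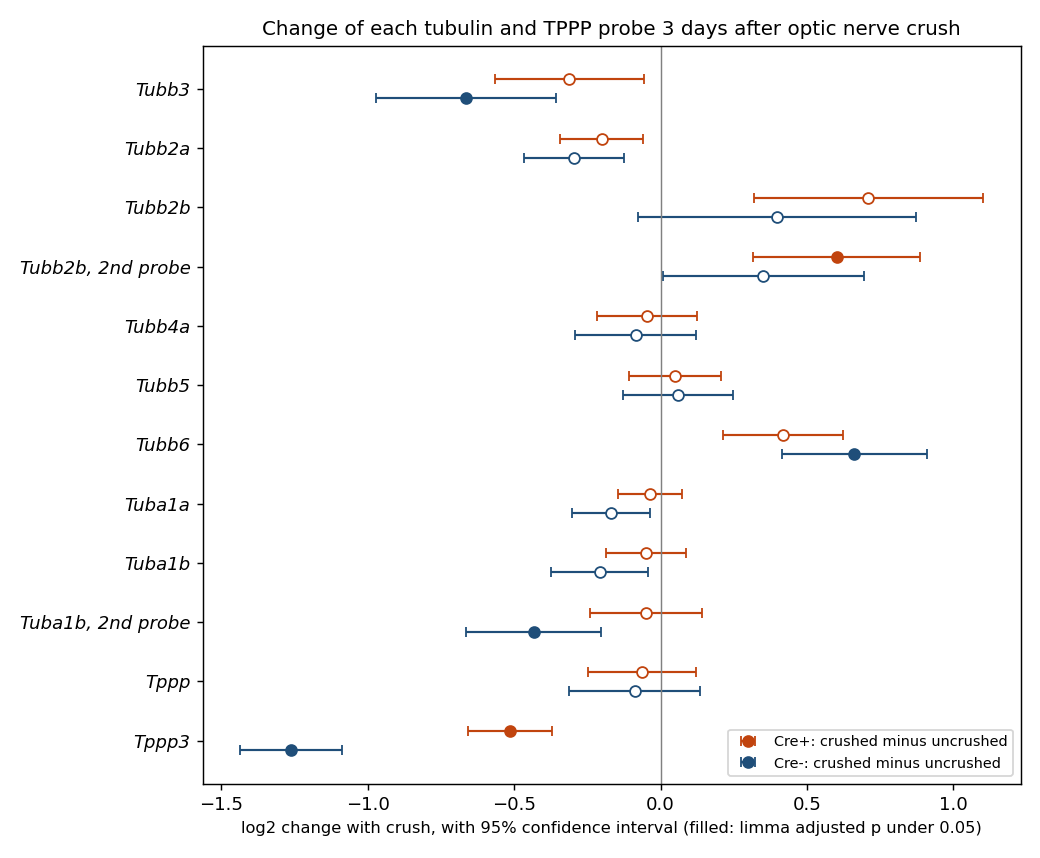
Log2 change with crush of the 12 probes in Cre-positive (5 crushed, 5 uncrushed) and Cre-negative retinas (3 crushed, 4 uncrushed), with 95% confidence intervals and filled points where the limma adjusted p was under 0.05. Tppp3 is the only gene filled in both genotypes, at -0.51 in Cre-positive and -1.26 in Cre-negative retinas, and the second probes of Tubb2b and Tuba1b are filled where the leading probes are not.

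The α-tubulins had small changes. Tuba1a, the main α-tubulin of young and growing neurons, ranged over 2.33 to 2.50 in Cre-positive crushed and 2.32 to 2.55 in Cre-positive uncrushed retinas (change -0.04, 95% CI -0.15 to 0.07, limma adjusted p = 0.87). It read 2.33, 2.20 and 2.33 in Cre-negative crushed retinas, against 2.40, 2.47, 2.47 and 2.47 in Cre-negative uncrushed ones. These groups did not overlap, but they lay close together, and the change of -0.17 was not called (95% CI -0.30 to -0.04, limma adjusted p = 0.24).

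The 2 probes of Tuba1b, the broadly used α-tubulin, disagreed in size. In Cre-positive retinas both probes changed by -0.05 (limma adjusted p = 0.86 for the leading and 0.90 for the second probe). The second probe read -0.61, -0.89 and -0.75 in Cre-negative crushed retinas, against -0.27, -0.28, -0.28 and -0.45 in Cre-negative uncrushed ones, with no overlap. Its change of -0.43 just passed (SE 0.11, 95% CI -0.66 to -0.20, limma adjusted p = 0.0499). The leading probe read 1.79, 1.92 and 1.78 in Cre-negative crushed retinas, against 2.02, 2.08, 1.97 and 2.07 in Cre-negative uncrushed ones. Those values did not overlap either. The leading probe changed by -0.21 (SE 0.08, 95% CI -0.37 to -0.04, limma adjusted p = 0.24), and by 0.03 when the Cy5 channel was used alone. Probe sequences were not used here, and tubulin genes are close relatives of each other, so whether a probe also reads another isotype was not tested.

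For Tubb4a, Tubb5 and Tppp no call was made in any comparison. Tubb4a, an isotype of the brain, changed by -0.05 (95% CI -0.22 to 0.13) in Cre-positive and by -0.08 (95% CI -0.29 to 0.12) in Cre-negative retinas. Tubb5, the general β-tubulin of dividing and resting cells, changed by 0.05 (95% CI -0.11 to 0.21) in Cre-positive and by 0.06 (95% CI -0.13 to 0.25) in Cre-negative retinas. Tppp changed by -0.06 (95% CI -0.25 to 0.12) in Cre-positive and by -0.09 (95% CI -0.31 to 0.13) in Cre-negative retinas, so a fall as large as that of its relative Tppp3 lies outside both intervals. The direction of the Tppp change in Cre-negative retinas depends on the signal used, with 0.18 from the processed signals. Its reference signal was dim, at a mean Cy3 intensity of 84.9 in crushed and 108 in uncrushed Cre-negative retinas.

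Counted by leading probe, 1 of the 10 genes fell after crush in Cre-positive retinas (Tppp3), where limma called 0.0853% of all probes tested lower, and 0 of 10 rose, where 0.65% were called higher (2 at an unadjusted p under 0.05). In Cre-negative retinas 2 of 10 fell (Tubb3 and Tppp3) and 1 rose (Tubb6), where 0.777% of all probes were called lower and 1.21% higher. The genes were chosen with earlier results of these data known, so these counts are a description. The difference between the responses was called higher for 1 of 10 (Tppp3), against 0.115% of all probes. Between crushed retinas 1 of 10 (Tppp3) was higher with Cre, against 0.607% of all probes. Between uncrushed retinas limma called 0 of 10 (1 at an unadjusted p under 0.05), against 0.00984% of all probes in either direction. The median change over the 10 genes was -0.05 after crush in Cre-positive and -0.13 after crush in Cre-negative retinas, against 0.00042 and 0.0014 over all probes.

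Ganglion cell markers fell along with Tppp3 and, in Cre-negative retinas, Tubb3, while the changes of Tubb6 and Tubb2b were of the opposite sign. After crush limma called 4 of 17 lower in Cre-positive retinas (median -0.27), where 0.0853% of all probes were called lower. In Cre-negative retinas it called 10 of 17 lower (median -0.60), where 0.777% of all probes were. At an unadjusted p under 0.05, 14 were lower in Cre-positive and 15 in Cre-negative retinas. In both genotypes 0 rose, adjusted or not. Their mean log2 level over 18 genes, relative to its mean over arrays, was -0.05 to 0.05 in Cre-positive crushed, 0.20 to 0.28 in Cre-positive uncrushed, -0.62 to -0.56 in Cre-negative crushed and between 0.08 and 0.17 in Cre-negative uncrushed retinas, and 17 or 18 of the 18 were above background on each array. The difference between the responses was called higher for 6 of 17 markers and lower for 0, against 0.115% of all probes higher. Between uncrushed retinas 0 of 17 were called, against 0.00984% of all probes in either direction. At an unadjusted p under 0.05, 6 were higher with Cre there and 0 lower. Between crushed retinas 10 of 17 were called higher with Cre, against 0.607% of all probes. The smaller fall with Cre was thus not particular to Tppp3. Like the members, the cell type markers were chosen with earlier results of these data known, so their counts are a description. The 3 arrays with the lowest marker level were the 3 with the lowest Tppp3 and the lowest Tubb3. In RNA from whole retina, fewer ganglion cells and less RNA per ganglion cell cannot be told apart. Of the 11 marker lists, microglia and macrophage markers rose most often, with 9 of 10 in Cre-positive and 4 of 10 in Cre-negative retinas (medians 0.71 and 0.51). Over all probes 0.65% and 1.21% were called higher. At an unadjusted p under 0.05, 9 and 8 of these markers were higher. Their mean level was 0.12 to 0.77 in Cre-positive crushed, -0.33 to -0.12 in Cre-positive uncrushed, 0.08 to 0.19 in Cre-negative crushed and between -0.36 and -0.32 in Cre-negative uncrushed retinas. All 10 were above background on every array. Cre-positive crushed replicate 5 was highest in these markers and in Tubb6, but the order of the other crushed retinas differed. In Cre-positive crushed replicates 1 to 5 the marker level was 0.12, 0.38, 0.47, 0.32 and 0.77. Tubb6 read -4.02, -4.26, -3.92, -4.18 and -3.60 there. In Cre-negative crushed replicates 1 to 3 the marker level was 0.19, 0.11 and 0.08, and Tubb6 read -3.80, -3.94 and -3.86. The part of either cell type in the tubulin values was not tested.

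**Figure D3:**
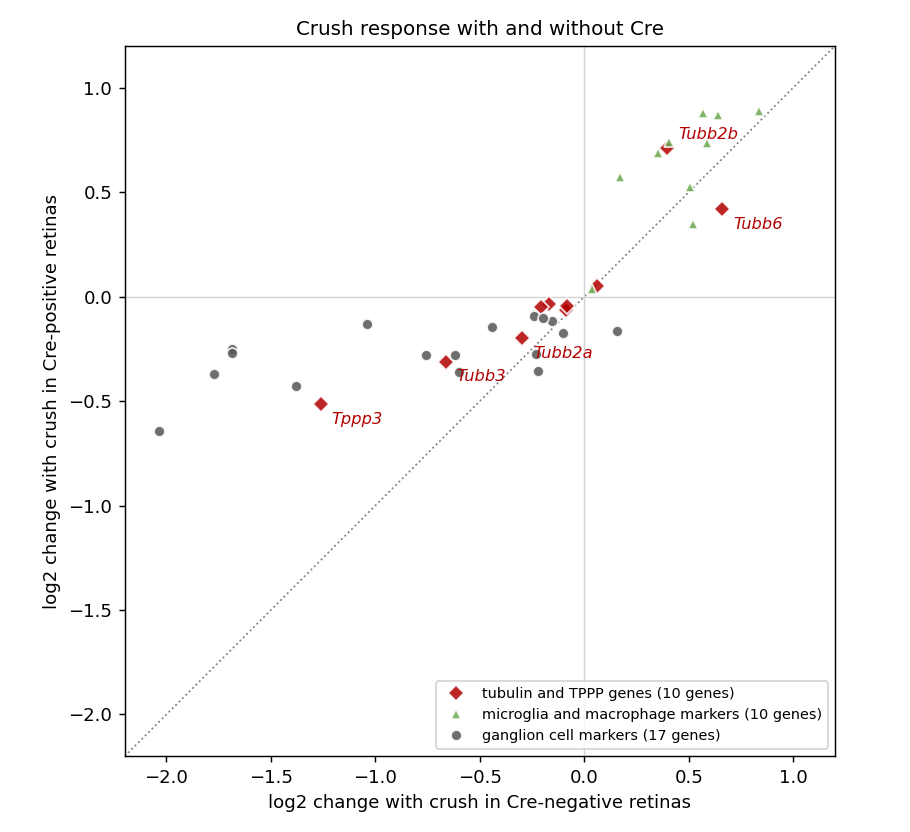
Log2 change with crush in Cre-negative retinas (x axis) and in Cre-positive retinas (y axis) for the leading probe of the 10 tubulin and TPPP genes, 17 ganglion cell markers and 10 microglia and macrophage markers. Points on the dotted line changed equally. Tppp3 lies among the ganglion cell markers to the left of and above the line, and Tubb6 and Tubb2b lie near the microglia and macrophage markers.

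**Figure D4:**
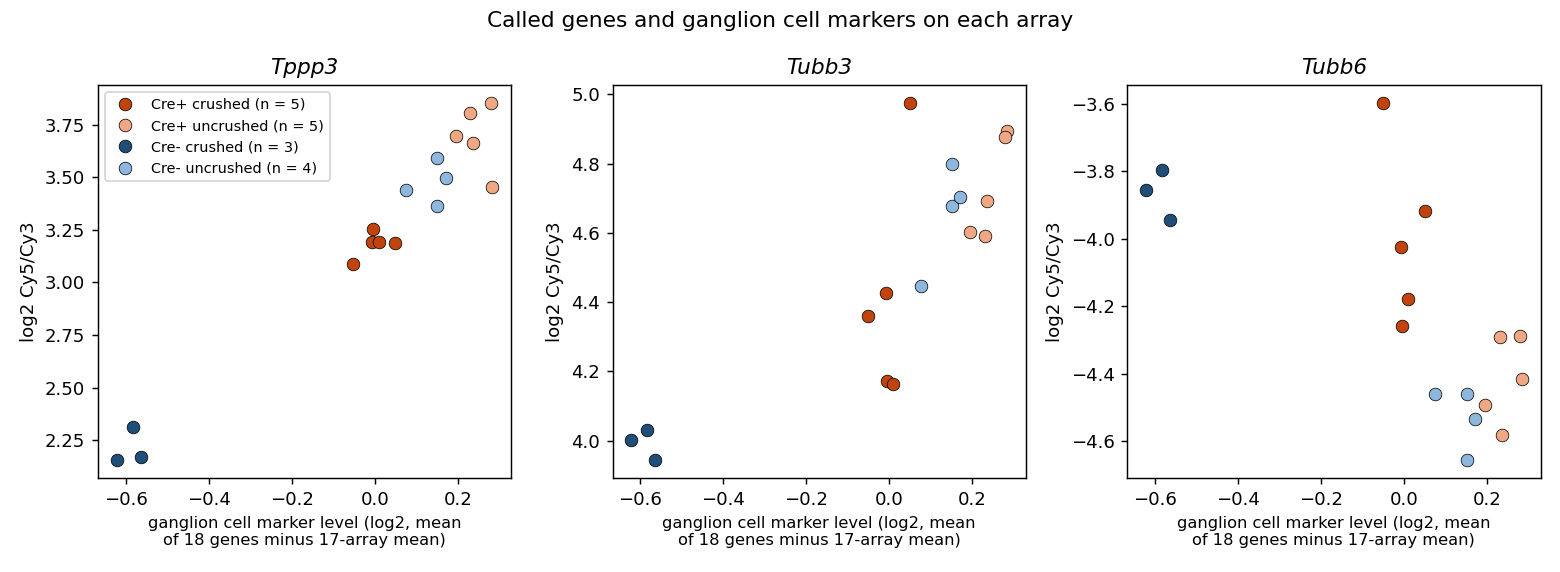
Log2 Cy5/Cy3 of Tppp3, Tubb3 and Tubb6 on each of the 17 arrays (y axes) against the mean log2 level of 18 ganglion cell markers (x axes), coloured by group. The arrays fall into groups along the x axis, with the 3 Cre-negative crushed retinas at -0.62 to -0.56, so no correlation is given.

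The genes whose pattern over the 17 arrays was closest to each called member were found by the root mean square difference, in log2 units after each probe's mean was removed. For Tppp3, whose own SD over arrays was 0.52, they were Fkbp1b, a regulator of intracellular calcium channels (0.0994), Irx4, an Iroquois transcription factor (0.175), and Chrna6, a nicotinic receptor subunit of ganglion cells (0.190). Fkbp1b fell by 0.58 in Cre-positive and by 1.34 in Cre-negative retinas, close to the values of Tppp3. For Tubb3, whose own SD was 0.32, they included Sh3bgr (0.141) and the cyclin-dependent kinase Cdk14 (0.147). For Tubb6, whose own SD was 0.30, they were the adaptor Skap2 (0.0874), the hyaluronan receptor Cd44, known from reactive glia (0.0925), and the microglial membrane protein Tmem119 (0.106). Tmem119 rose by 0.35 in Cre-positive and by 0.52 in Cre-negative retinas, against medians of 0.71 and 0.51 for the microglia and macrophage markers. Likeness of this kind follows the groups, and the genes named as closest were picked for it.

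The counts for other genes that build, fold, bind or modify microtubules stand against those over the whole array. After crush 0.735% of all probes were called in either direction in Cre-positive and 1.98% in Cre-negative retinas, so that a count of 0 in lists of this size is near the background and is no result about them. Of 12 other tubulins and relatives tested, limma called 0 in any of the 5 comparisons (at an unadjusted p under 0.05, 1 was higher and 1 lower after crush in Cre-positive retinas, and 1 higher and 3 lower in Cre-negative ones). Of 21 tubulin folding cofactors, which include the chaperonin that folds new tubulin, 0 were called in any of the 5 (0 higher and 1 lower at an unadjusted p under 0.05 in Cre-positive, and 1 and 1 in Cre-negative retinas). Of 16 severing and nucleation genes 0 were called in any of the 5 (2 higher and 1 lower unadjusted in Cre-positive, and 2 and 0 in Cre-negative retinas). In Cre-negative retinas the median change after crush was 0.02, 0.02 and 0.06 in these 3 lists.

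Among the genes of these microtubule lists, the lowest adjusted p after crush in either genotype was that of Agtpbp1, the deglutamylase CCP1, which trims glutamates from tubulin tails and was first described in mouse as a protein induced by axotomy. It read 2.80, 2.64, 2.73, 2.73 and 3.16 in Cre-positive crushed retinas, against 2.19, 2.37, 2.20, 2.34 and 2.26 in Cre-positive uncrushed ones. It read 2.86, 2.66 and 2.93 in Cre-negative crushed retinas, against 2.14, 2.01, 2.15 and 2.19 in Cre-negative uncrushed ones. Crushed and uncrushed retinas did not overlap in either genotype. Agtpbp1 rose by 0.54 in Cre-positive (limma adjusted p = 0.0027) and by 0.69 in Cre-negative retinas (limma adjusted p = 0.00047), and its 3 probes were called in both, with changes of 0.54 to 0.69 and 0.65 to 0.74. The difference between the responses was -0.15 (limma adjusted p = 0.81).

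Vash2, a vasohibin that removes the last tyrosine of α-tubulin, was the other of the 20 tubulin modifying enzymes tested that passed. It read -1.01, -0.93 and -0.98 in Cre-negative crushed retinas, against -1.41, -1.34, -1.27 and -1.36 in Cre-negative uncrushed ones, with no overlap, and rose by 0.37 (limma adjusted p = 0.015). In Cre-positive retinas its change was -0.03 (limma adjusted p = 0.92), and the difference between the responses, -0.40, was not called (limma adjusted p = 0.15). Of the modifying enzymes 1 of 20 thus rose in Cre-positive and 2 of 20 in Cre-negative retinas, where 0.65% and 1.21% of all probes were called higher. Limma called 0 lower (2 in each genotype at an unadjusted p under 0.05), where 0.0853% and 0.777% of all probes were called lower, so the 0 is near the background.

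Of 25 microtubule-associated proteins tested, limma called 1 after crush in both genotypes and 0 in the other comparisons (at an unadjusted p under 0.05, 3 were higher in the difference between responses, and 5 with Cre in crushed retinas). It was Dclk1, a doublecortin-like kinase that binds microtubules and is not DLK. Its leading probe rose by 0.35 in Cre-positive (limma adjusted p = 0.044) and by 0.46 in Cre-negative retinas (limma adjusted p = 0.011), with no overlap between crushed and uncrushed retinas in either. Its other probes did not pass and changed by 0.13 and 0.06 in Cre-positive and by -0.02 and 0.17 in Cre-negative retinas. The probes of this gene thus disagree.

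**Figure D5:**
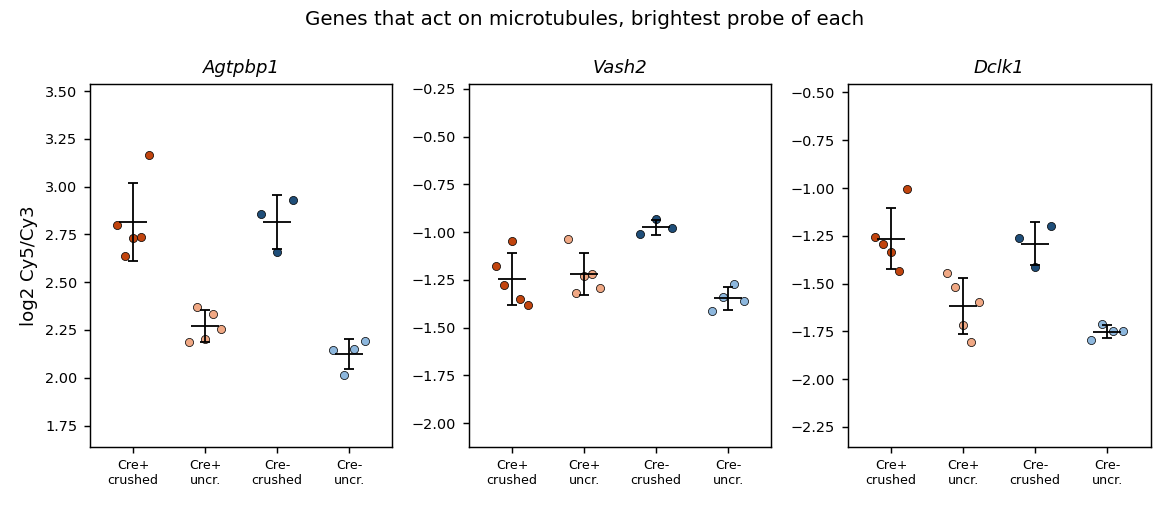
Log2 Cy5/Cy3 of the leading probes of Agtpbp1, Vash2 and Dclk1 in each retina (points), with the group mean and SD (bars), for the same groups of 5, 5, 3 and 4 retinas. Agtpbp1 and Dclk1 are higher in crushed than in uncrushed retinas of both genotypes, while Vash2 changed by -0.03 in Cre-positive and 0.37 in Cre-negative retinas.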

How the data were processed

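The data are 2-colour Agilent arrays of mouse retinal RNA, 18 arrays on 5 slides. The deposited scanner files hold intensity values, per the file headers medians for the spots and for the background around them in each dye, and the processed signals of Agilent Feature Extraction 10.7.3.1. The authors' table holds 1 value per probe and array. It names limma, per the submitters' processing notes, and its scale was taken as log2 of Cy5 over Cy3, because it correlated with the ratios computed here at r of 0.999 to 1 (slopes 1 to 1.02, column medians 0.015 to 0.0237). How its background was corrected and its values normalized is not given in the sources used here.

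The ratios come from limma 3.58.1 under R 4.3.3: normexp background correction with an offset of 50, loess within each array, and spots of a probe averaged. The offset draws ratios of dim spots toward 0. The plan named the mean spot intensity, and the median was used because the files hold it. Symbols came from RefSeq accessions, for 26581 of 39429 probes, and the other 12848 were tested unnamed. A probe was tested if its Cy5 signal passed the scanner's above-background flag on 3 or more of 17 arrays, which left 30484 probes. Those arrays were fitted with 1 mean for each of 4 groups (13 residual and 4.61 prior degrees of freedom, 56 missing values left out), two-sided, with 5 contrasts. All results for members and lists are from this fit, which was also tested on simulated data.

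The members, the lists of related genes and the cell type markers were chosen with earlier results of these data known. The text names every member with all its probes, up to 6 called genes of each list of related genes, and the 3 genes closest in pattern to each called member, of which 1 is not reported here. Counts use the leading probe, the brightest over both dyes. No probe positions are given, because the builds named by the array and by the reference table differ. The array with disagreeing labels entered no comparison. Alternatives covered the background correction, the signal, the scaling between arrays, the filter, the slide, array weights, the prior, the array with disagreeing labels, other probes and leaving out each array.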

Additional observations from a re-analysis of the deposited data

Results flagged for a closer look

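Among 36 groups of 4 or 5 samples tested, 1 for each member probe and group, 3 held a sample whose gap to its nearest neighbour was large against the range of its group, where chance flags about 1 in 20. Tubb5 was highest in Cre-positive crushed replicate 5, at 0.62 against 0.19 to 0.30 in the others (gap over range 0.749, critical value 0.71). Tuba1a was lowest in Cre-negative uncrushed replicate 1, at 2.40 against 2.47 in the other 3 (0.977, critical value 0.829), a gap of small size. The second Tuba1b probe was lowest in Cre-negative uncrushed replicate 4, at -0.45 against -0.28 to -0.27 (0.970, critical value 0.829). The crush response of Tppp3 differed between Cre-positive and Cre-negative retinas, at -0.51 and -1.26, a difference of 0.748 (limma adjusted p = 0.0013).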

How the results depend on the processing

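In Cre-positive retinas 1 member gene was called after crush, 2 with the authors' value table, 2 with slide as a random block, 0 with the array of disagreeing labels placed among the Cre-negative uncrushed retinas, and 1 to 2 when 1 array was left out. In Cre-negative retinas 3 were called, 1 with that array so placed, 4 with it among the crushed retinas, with array weights or with the compared groups fitted alone, and 2 to 4 when 1 array was left out. The difference between the responses was called for 1 gene, 0 with that array so placed. Between crushed retinas 1 was called, and between uncrushed retinas 0, in every alternative run. Over all probes the calls numbered 224 (12 to 266) after crush in Cre-positive and 605 (89 to 1368) in Cre-negative retinas, 109 (0 to 166) for the difference, and 342 (136 to 612) and 3 (1 to 3) for Cre in crushed and uncrushed retinas. The lowest count of the first 3 came with that array among the uncrushed retinas. With it among the crushed retinas, the member counts of the other 4 comparisons were as without it.

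Of 1700 values of the 50 member changes under alternatives, 1678 kept the side of the threshold, 11 lost a call and 11 gained one, and no called change (0) reversed. Tppp3 kept its call after crush in Cre-negative retinas in 34 of 34 alternatives (-1.50 to -1.05). Leaving out the lens-rich and the cornea-rich array together, chosen after seeing the data, changed no count of calls. The fit of the compared groups only is the main fit for the difference, so it was not run there. No paired analysis was run, because the labels do not say which eyes share an animal. Each crushed retina compared lay right after an uncrushed retina of its genotype on the same slide. In every such pair the running numbers in the titles differed by the same step. These may be eyes of the same animal, but no label says so, and the fit did not pair them. Retinas were compared within slides instead: with slide as a fixed block the members called were the same in all 5 comparisons. In both genotypes crushed retinas had even slide positions and uncrushed ones odd, so within a genotype crush and position cannot be told apart. Dim Cy3 limits Tppp most.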

Other observations

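The array that is uncrushed by its title and crushed by its description, from a Cre-negative mouse, read 2.41 for Tppp3, 3.94 for Tubb3, 2.77 for Tubb2a and -3.75 for Tubb6. Its Tubb2b probes read 0.27 and 0.36, its Tuba1b probes 1.67 and -0.43, and Tuba1a read 2.34. Tubb4a read -1.47, Tubb5 0.26 and Tppp 3.47. Its ganglion cell marker level was -0.66, its microglia and macrophage marker level 0.44, and its lens marker level 0.80. Agtpbp1 read 2.82, Vash2 -1.07 and Dclk1 -1.28 on it. It lay at position 4 of slide 5, and the crushed retinas compared all had even positions. The running number in its title comes next after those of the Cre-negative crushed retinas. Neither these facts nor its values were used to place it in a group.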
